A study of Danio rerio with 12 samples.

Results

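The comparison asked which stretches of accessible chromatin appeared and which disappeared in control zebrafish (Danio rerio) embryos between the stage of 12 somites and 24 hours post fertilization (24 hpf). Accessibility was read by ATAC-seq, an assay in which a transposase cuts and tags the DNA that it can reach, so that open promoters and enhancers stand out as peaks of fragments. The comparison used 2 libraries of DMSO-treated embryos at 24 hpf and 2 libraries of DMSO-treated embryos at 12 somites, 4 of the 12 libraries of the series. All embryos were wild-type, and each library was made from whole embryos after egg envelope and yolk had been taken off. The solvent DMSO was added from 80% epiboly on in these 4 libraries. The 8 libraries that the comparison did not use to choose regions were 2 each of 24 hpf and 12 somites embryos given 0.1 µM all-trans retinoic acid (atRA) from 80% epiboly on, and 2 each of 80% epiboly embryos given atRA or DMSO from 30% epiboly on. The labels do not say how many embryos a library held or whether the replicates came from separate clutches, so the spread between replicates may be technical.

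Embryos at 12 somites are in the middle of segmentation, when blocks of mesoderm form in turn along the trunk and the tail is still extending. By 24 hpf the body plan is laid out, the somites have formed, and muscle, blood, heart, pigment cells and the first neuronal circuits are differentiating. Enhancers used for patterning are known to lose accessibility as cells commit, while enhancers of differentiated cell types gain it. In a whole embryo, a larger share of cells with an open site and a more accessible site per cell cannot be told apart.

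In each library the peaks on chromosomes 1 to 25 were ranked by their −log10 p-value, then by fold enrichment, then by position. A top set was cut at rank 50000 of each list and a wide set at rank 100000. The top sets of the 4 libraries were merged into 81794 regions. A region was opened if it lay in the top set of both 24 hpf libraries and in the wide set of neither 12 somites library. A closed region lay in the top set of both 12 somites libraries and in the wide set of neither 24 hpf library. A region in the top set of all 4 libraries was called kept. Coordinates are those of the lists, on the build GRCz10 named in the submitters' processing notes.

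By this rule 1792 regions were opened, which is 2.19% of the merged regions, and 1476 were closed, which is 1.8%. These 3268 regions are described here, beside the 25733 kept regions (31.5%). Opened regions covered 0.558 Mb and closed regions 0.438 Mb. A further 4543 regions lay in the top set of both 24 hpf libraries and of neither 12 somites library but still reached the wide set of at least 1 of the 12 somites libraries. The reverse held for 4105 regions. The 316 regions by which opened exceeded closed did not have a stable sign: without 12 somites replicate 1 the difference was −1044, and without 12 somites replicate 2 it was −1055. Leaving out any 1 of the 4 libraries loosens the rule, and gave 4284 and 4887 opened regions without 24 hpf replicate 1 and 2, and 2943 and 4955 without 12 somites replicate 1 and 2. Closed regions numbered 2480, 2860, 3987 and 6010 in these 4 cases.

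The rule cuts a continuous range. The last opened region to enter, at chr3:49104517-49104714, had ranks of 25322 and 49994 in the 24 hpf libraries, with a fold of 6.56 at the worse rank. The first to miss, at chr24:5927842-5928193, had ranks of 23852 and 50001 and the same fold at the worse rank. Likewise the closed region at chr14:48615010-48615358 entered with rank 50000 in 12 somites replicate 1 (fold 6.08), and the region at chr2:48376424-48376747 missed with rank 50003 in 12 somites replicate 2 (fold 7.89). In the opened pair, the member and the non-member at the border had the same fold in the same library; the folds of the closed pair come from different libraries and cannot be set side by side.

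The 4 lists differed in depth. The lists held 185395 and 232794 peaks in the 24 hpf libraries, and 156361 and 235850 in the 12 somites libraries (mean 209094 ± 33516 against 196106 ± 56207, SD, n = 2 each; two-sided exact permutation p = 1, smallest possible 0.33). The background pileup that the peak caller had used, recovered from fold and p-value, was 1.39 and 2.03 fragments in the 24 hpf libraries and 0.69 and 1.15 in the 12 somites libraries. The shallowest library, 12 somites replicate 1, reached rank 50000 at a −log10 p-value of 8.93, whereas the other 3 reached it between 12.96 and 15.1. Peak names in both 24 hpf DMSO lists carry a word that the other 10 lists lack, those of 24 hpf atRA included. Among the 4 DMSO lists compared, whatever it marks cannot be told apart from the stage. Within the top sets, 78.3% of peaks were shared between the 24 hpf replicates and 72.3% between the 12 somites replicates. The 4 pairs across stages shared 63.3% to 68.5%. The mean of the same-stage pairs was 9.45 percentage points above that of the different-stage pairs, with a one-sided exact permutation p of 0.33, the smallest that 3 splits allow. It was 5.89 points without 24 hpf replicate 1 and 14.5 points without 12 somites replicate 2.

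In the libraries that defined them, opened and closed regions were weaker and narrower than kept regions. Kept regions were chosen for a top rank in all 4 libraries. The median fold of opened and closed regions lay slightly above that of all merged regions with a peak in the library. In 24 hpf replicates 1 and 2, the median summit of an opened region had a pileup of 23 and 29 fragments and a fold enrichment of 7.93 and 7.82. Kept regions in the same libraries had a pileup of 35 and 44 and a fold of 10.2 and 9.85. All merged regions with a peak there had a pileup of 22 and 28 and a fold of 7.47 and 7.27. Closed regions stood in the same relation to kept regions. Their median pileup was 13 and 22 in 12 somites replicates 1 and 2, with a fold of 7.11 and 8.68. Kept regions there had a pileup of 20 and 34 and a fold of 9.23 and 11.2. All merged regions with a peak there had a pileup of 13 and 21 and a fold of 6.78 and 8.11. Expressed as a ratio to kept regions of the same library, the fold was 0.787 ± 0.00907 for opened and 0.773 ± 0.00379 for closed regions (SD, n = 2 libraries each). The rule itself used rank and fold, so these values describe the members and were not tested.

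Few members were among the strongest peaks of their stage. Median ranks were 34076 and 34744 for opened regions in the 24 hpf libraries, and 31762 and 34813 for closed regions in the 12 somites libraries. Only 1.9% and 2.12% of the opened regions were among the best 10000 peaks of the 24 hpf libraries, and 3.66% and 2.78% of the closed regions among those of the 12 somites libraries. Among kept regions the share was 36.6% to 37.0% in all 4 libraries. Among all merged regions it was 12.2% in each of them. The rule also kept members out of the wide set of the other stage, and its part in their low shares was not tested. The rank of an opened region in one 24 hpf replicate also told little of its rank in the other: Spearman's rho across the 1792 regions was 0.32, as it was for closed regions between the 12 somites replicates, where kept regions gave 0.82 at 24 hpf and 0.76 at 12 somites. The regions share the 2 libraries and the members span a narrower range of ranks, so these correlations are descriptions.

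Median peak width was 251 and 264.5 bp for opened regions in 24 hpf replicates 1 and 2, against 318 and 340 bp for kept regions there. For all merged regions with a peak there it was 255 and 274 bp. Closed regions had median widths of 223 and 269 bp in 12 somites replicates 1 and 2, against 273 and 317 bp for kept regions there. For all merged regions with a peak there the widths were 219 and 261 bp. The ratio to kept regions was 0.784 ± 0.00804 for opened and 0.833 ± 0.0224 for closed regions (SD, n = 2 libraries each). Weaker peaks were narrower in every list, so members were also set beside all top peaks in the same bin of 10000 ranks. Opened regions were then narrower by 0 to 38.5 bp in the 5 bins of either 24 hpf library. Closed regions ranged from 40 bp narrower to 7 bp wider in the 12 somites libraries. Members thus differed less from top peaks of like rank than from kept regions. The merged regions, which for kept regions join peaks of 4 libraries, had a median width of 287 bp for opened, 285 bp for closed, 379 bp for kept and 298 bp for all regions. At least 1000 bp were reached by 1 opened, 0 closed, 62 kept and 64 of all merged regions.

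**Figure D1:**
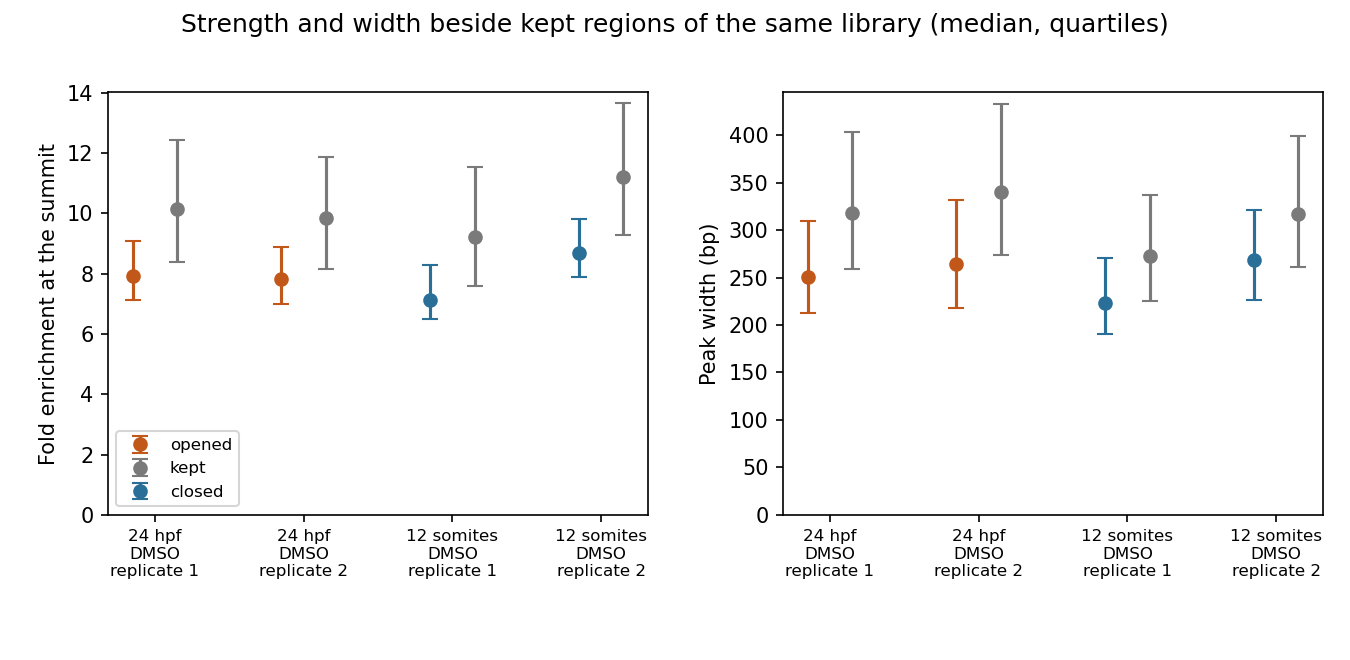
Median fold enrichment at the summit (left, ratio) and median peak width in bp (right) with quartiles as bars, in each DMSO library, for the regions that the library helped to define and for kept regions of the same library. Opened regions at 24 hpf and closed regions at 12 somites had lower medians than kept regions in each library, with folds of 7.11 to 8.68 against 9.23 to 11.2.

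Replicates placed the summits of most members close together. The median distance between the summits of the 2 replicates was 14.5 bp in opened regions at 24 hpf, where kept regions had 14 bp. In closed regions at 12 somites it was 23 bp, where kept regions had 18 bp. Summits lay within 50 bp of each other in 79.1% of opened and 74.3% of closed regions.

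In the width of the top peaks as a whole, the DMSO libraries of the stages overlapped. Median widths were 284 and 308 bp in the 24 hpf and 244 and 292 bp in the 12 somites DMSO libraries, a difference of 28 bp (two-sided exact permutation p = 0.667). It was 4 bp without 12 somites replicate 1, 16 bp without 24 hpf replicate 2 and 52 bp without 12 somites replicate 2. Among the atRA libraries the median was 275.5 ± 13.4 bp at 24 hpf and 313.5 ± 4.95 bp at 12 somites, a difference of −38 bp with p = 0.33 in the same exact test. The contrast between these effects was 66 bp (exact permutation within treatment, 36 labelings, p = 0.111, smallest possible 0.0556). Background pileup was 1.39 and 2.03 fragments at 24 hpf against 0.69 and 1.15 at 12 somites in the DMSO libraries, and 2.03 and 1.98 against 1.6 and 1.44 in the atRA libraries, and the part of depth in the widths was not tested.

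Most opened and closed regions were not empty at the other stage. An opened region had a peak of any rank in neither 12 somites DMSO list in 411 cases (22.9%), in 1 of them in 976 cases and in both in 405 cases. Such a peak, where it existed, had to lie outside the wide set by the rule, so its weakness was set in advance. Its median pileup was 6 fragments in replicate 1 (489 regions) and 10 in replicate 2 (1297 regions), with a fold of 4.15 and 4.64. A peak was present in 27.3% of the opened regions in 12 somites replicate 1 and in 72.4% in replicate 2. For all merged regions, which the rule does not hold outside the wide set, these shares were 86.3% and 94.9%. The 2 lists held 156361 and 235850 peaks, and the part of depth in the shares was not tested. A closed region had a peak in neither 24 hpf DMSO list in 371 cases (25.1%), in 1 of them in 515 and in both in 590. A peak was present in 50% of the closed regions in 24 hpf replicate 1 and in 64.8% in replicate 2. For all merged regions these shares were 92.0% and 94.7%. These leftover peaks were likewise held outside the wide set by the rule. Their median pileup was 10 fragments in 24 hpf replicate 1 (738 regions) and 13 in replicate 2 (957 regions), with a fold of 4.18 and 4.196. An overlapping peak can also belong to a neighbouring site: its summit lay outside the region in 0.19% to 2.58% of opened and 0.14% to 2.75% of closed regions with a peak, over the libraries that did not define the class. Absence from a list means that no peak passed the caller's threshold at that depth, not that the site was closed.

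The 8 libraries that had no part in the choice of regions allow the same measure to be read again. In the atRA libraries, opened regions reached the top set in 64.7% and 64.4% of cases at 24 hpf, against 15.01% and 14.3% at 12 somites. The difference was 49.9 percentage points (64.6 ± 0.237% against 14.7 ± 0.474%, SD, n = 2 each; two-sided exact permutation p = 0.33, the smallest that 2 against 2 allows). The ranges were far apart. The difference was 29.1 points for regions called without 24 hpf replicate 2 and 27.0 points with top and wide sets of 100000 peaks. Closed regions reached the top set of the atRA libraries in 5.25 ± 0.0479% of cases at 24 hpf and in 47.1 ± 0.767% at 12 somites, a difference of −41.8 points (SD, n = 2 each; p = 0.33 in the same exact permutation test). That difference was −25.4 points for regions called without 12 somites replicate 1 and −15.7 points for regions called without 12 somites replicate 2. Over all merged regions the top-set shares were 54.95% and 54.3% at 24 hpf and 55.99% and 56.3% at 12 somites, so closed regions were below the share of all regions at both stages and opened regions were above it at 24 hpf. In the wide set the shares were 91.1% against 53.6% for opened and 25.7% against 86.4% for closed regions, where all merged regions had 78.1% and 75.8% at 24 hpf and 82.4% and 82.6% at 12 somites. The closed share at 12 somites was thus near that of all regions. The stage difference chosen in DMSO embryos thus had the same direction in atRA-treated embryos in both classes, while 54.1% and 53.0% of the opened regions were in the wide sets of the 12 somites atRA libraries. The 24 hpf and the 12 somites libraries of both treatments also lie on opposite sides of a division of the series described with the chromosome ends, and whatever sets that division cannot be told apart from the stage here.

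**Figure D2:**
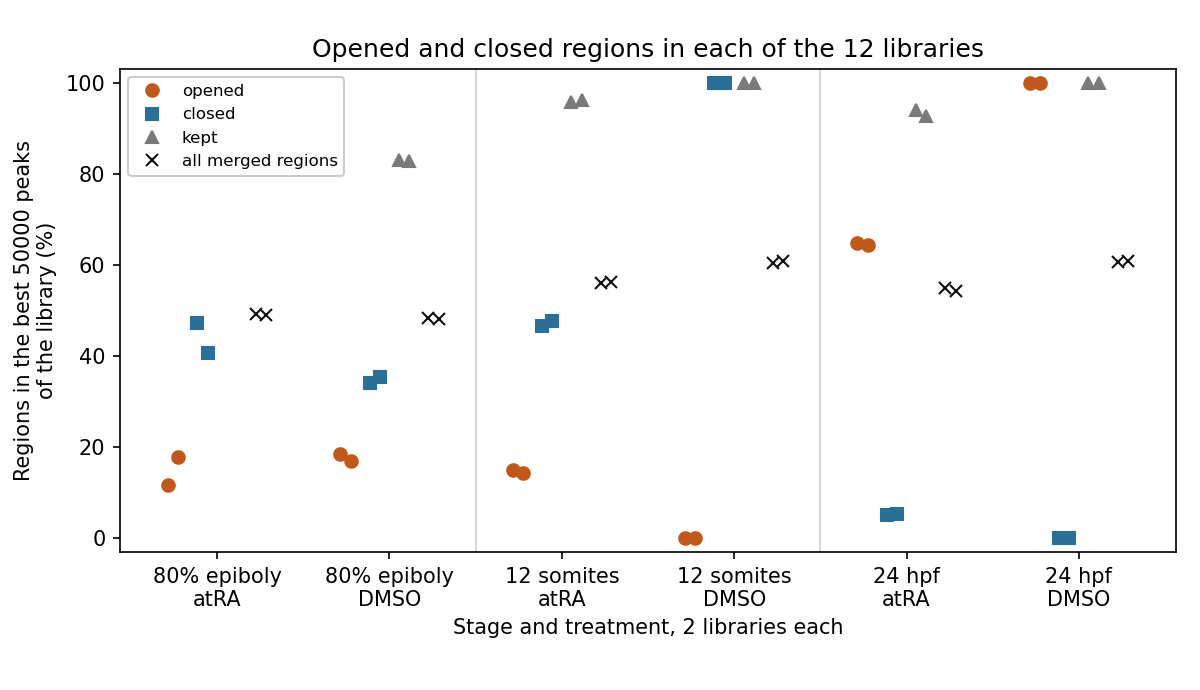
Percent of opened, closed, kept and all merged regions that overlapped the best 50000 peaks of each of the 12 libraries, 2 per group, in order of stage. The 4 DMSO libraries of 12 somites and 24 hpf defined the classes, so 0% and 100% there are set by the rule; the atRA libraries, which were not used, gave 64.4% to 64.7% for opened regions at 24 hpf against 14.3% to 15.01% at 12 somites.

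Under the full rule, fewer regions were recalled. Of the opened regions, 230 (12.8%) were also opened between the atRA libraries, where the rate over all merged regions was 0.923%, and 3 were closed. Of the closed regions, 267 (18.1%) were also closed between the atRA libraries, where the rate over all merged regions was 1.51%, and 0 were opened. By order of ranks alone, both 24 hpf atRA libraries placed 1260 opened regions (70.3%) above both 12 somites atRA libraries, against 24.2% of all merged and 25.015% of kept regions. The opposite order held for 41 opened regions. Both 12 somites atRA libraries placed 1143 closed regions (77.4%) above both 24 hpf atRA libraries, against 30.7% of all merged regions, and the opposite order held for 14. The order of ranks was thus the same in both treatments for most members of either class.

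At 80% epiboly, near the end of gastrulation and before somites form, the top sets held a smaller share of opened than of closed regions in 4 of 4 libraries. For opened regions the shares were 11.6% and 17.8% after atRA and 18.4% and 17.1% after DMSO. For closed regions they were 47.2% and 40.6% after atRA and 34.1% and 35.5% after DMSO. Over all merged regions they were 49.1% and 48.9% after atRA and 48.4% and 48.2% after DMSO, above both classes in each library. In the top set of both DMSO libraries lay 242 opened regions (13.5%) and 434 closed regions (29.4%), against 79.75% of kept and 43.7% of all merged regions. The wide set of neither DMSO library held 913 opened (50.95%) and 464 closed regions (31.4%), against 24.7% of all merged and 4.1% of kept regions. Some opened sites had thus been accessible at 80% epiboly, were weak or without a peak at 12 somites and ranked high at 24 hpf. The 80% epiboly DMSO libraries were the deepest of the series, with a background pileup of 3.18 and 3.28 fragments.

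Regions with a clean pattern over all lists were few. A peak in all 4 lists of 24 hpf embryos, DMSO and atRA, with none in the 4 lists of 12 somites embryos, was found in 84 opened regions (4.69%, against 0.317% of all merged regions), of which 57 (67.9%) had peaks in both 80% epiboly DMSO lists, against 56.4% of all merged regions with this pattern. In 24 opened regions (1.34%) there was no peak in any of the 8 lists of 80% epiboly and 12 somites. The share of all merged regions without such a peak was not counted. Of the 24 opened regions, 22 had a peak in all 4 lists of 24 hpf (1.23% of opened, against 0.083% of all merged regions). The 4 opened regions between positions 14295956 and 14299713 of chromosome 15 were among these 22, so the 22 are not all separate places. A peak in all 4 lists of 12 somites embryos with none in the 4 lists of 24 hpf embryos was found in 232 closed regions (15.7%, against 1.12% of all merged regions). Of these, 177 (76.3%) had peaks in both 80% epiboly DMSO lists and 41 (17.7%) in neither, near the 78.8% and 13.7% of all merged regions with this pattern. The DMSO lists used here also set the class, so part of each count follows from the rule.

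Along the chromosomes, closed regions lay nearer to the ends and opened regions nearer to the middle. The end of a chromosome was taken as the last peak in any list. The median distance to the nearer end was 17.9 Mb for opened, 8.81 Mb for closed, 12.1 Mb for kept and 12.8 Mb for all merged regions. Within 5 Mb of an end lay 211 opened regions (11.8%) and 483 closed regions (32.7%), against 23.9% of kept and 21.98% of all merged regions. The limit of 5 Mb was chosen after these values had been seen, so no test is attached to it. When top peaks were instead drawn in a fixed quota from each 5 Mb, which evens out such differences by construction, the shares were 21.2% of opened and 23.8% of closed regions. The opened share was lower than that of all merged regions in 22 of 25 chromosomes, and the closed share was higher in 24 of 25. The shares did not change evenly with distance. In the outermost 1 Mb, 1.44% of merged regions were opened and 2.07% closed. From 2 to 5 Mb the opened share was at its lowest, 1.07%, and the closed share at its highest, 2.96%. From 10 to 15 Mb the shares were 1.89% opened and 2.03% closed, the closed share near that of the outermost 1 Mb, and beyond 20 Mb they were 3.45% opened and 1.01% closed.

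**Figure D3:**
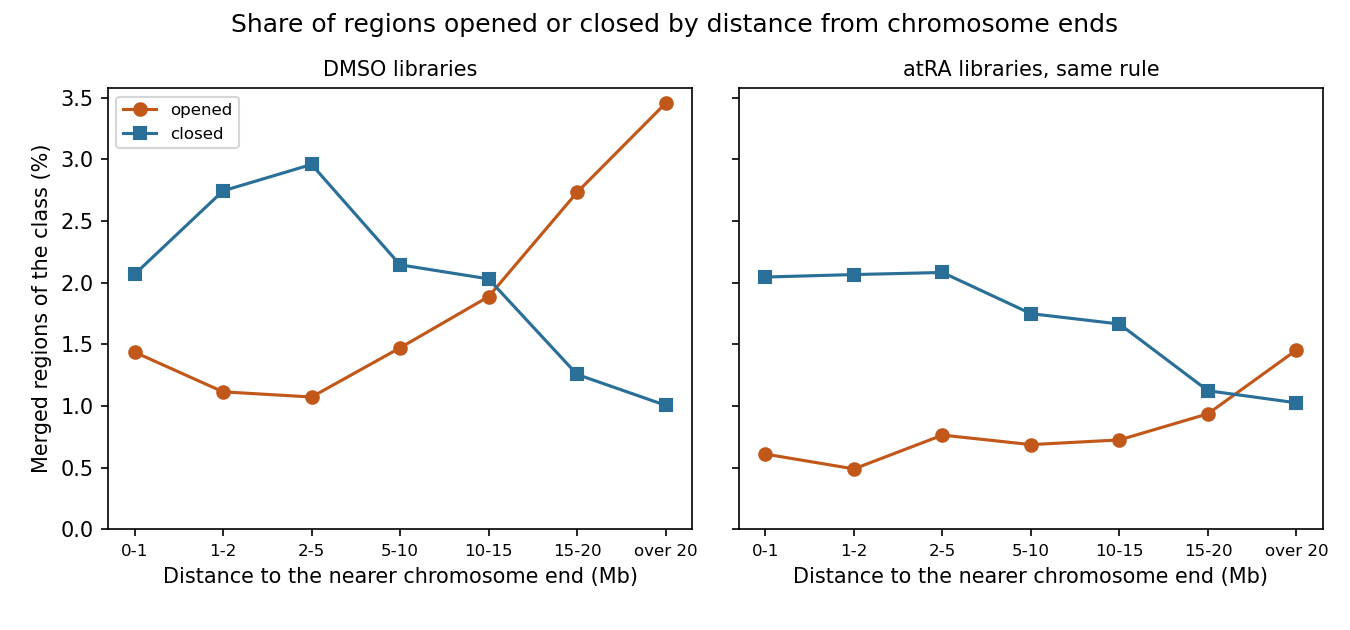
Percent of merged regions called opened or closed (y axis) by distance to the nearer chromosome end in Mb (x axis, bins), for the DMSO libraries (left) and for the atRA libraries under the same rule (right). In the DMSO panel the opened share is 1.44% in the outermost 1 Mb, 1.07% at 2 to 5 Mb and 3.45% beyond 20 Mb, and the closed share is 2.07%, 2.96% and 1.01% in these bins; in the atRA panel the opened share is 0.609%, 0.763% and 1.45% and the closed share 2.045%, 2.08% and 1.03%.

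The atRA libraries differed in the same direction. Within 5 Mb of an end lay 15.9% of the regions opened and 30.0% of the regions closed between them. Without the regions already called in DMSO embryos, the shares were 15.6% of 525 opened and 28.3% of 972 closed regions. It was also visible in the top sets as a whole. Within 5 Mb of an end lay 21.0% and 20.5% of the best 50000 peaks in the 24 hpf DMSO libraries, against 24.8% and 24.3% in the 12 somites DMSO libraries, and 20.9% and 20.7% in the 24 hpf atRA libraries, against 23.3% and 23.3% in the 12 somites atRA libraries. The 80% epiboly libraries did not share 1 level: it was 24.0% and 23.8% after atRA and 20.6% and 20.9% after DMSO. High values thus occurred in the 4 libraries of 12 somites and the 2 atRA libraries of 80% epiboly, which is not a division by stage alone.

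Closed regions had fewer neighbours than opened regions. Within 50 kb of an opened region lay 7.77 other merged regions on average, and within 50 kb of a closed region 6.23, against 8.06 for kept and 7.53 for all merged regions. No kept region lay within 50 kb of 14.9% of opened and 29.7% of closed regions, against 16.5% of all merged regions. At 5 Mb or more from chromosome ends, the shares were 15.2% of opened, 33.7% of closed and 17.9% of all merged regions, so the difference was at least as large away from the ends. The median distance to the nearest region of the same class was 130 kb for opened and 194 kb for closed regions. An opened region other than itself lay within 50 kb of 26.5% of opened, 5.96% of closed and 14.3% of all merged regions. For a closed region within 50 kb, the shares were 4.74% of opened, 21.7% of closed and 10.02% of all merged regions.

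The balance of the classes varied between chromosomes. The opened share ran from 1.25% of merged regions on chromosome 1 to 3.53% on chromosome 23, with a median of 2.04%. The closed share ran from 0.99% on chromosome 24 to 2.76% on chromosome 4, with a median of 1.81%. Opened regions outnumbered closed regions on 18 of 25 chromosomes, but on 4 without 12 somites replicate 1, on 5 without 12 somites replicate 2, on 6 with the atRA libraries, and on 25 without either 24 hpf library, so the balance depended on the libraries used. The extremes were chromosome 23, with 110 opened and 43 closed regions, and chromosome 1, with 46 opened and 76 closed regions. Chromosome 4, whose long arm is rich in repeats and late-replicating heterochromatin, had high shares of its merged regions in both classes (3.32% opened, 2.76% closed). It had the lowest kept share, 24.2% against a median of 32.0%. Per Mb it held 1.07 opened and 0.887 closed regions, fewer than most chromosomes in both classes. Its arms were not compared.

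**Figure D4:**
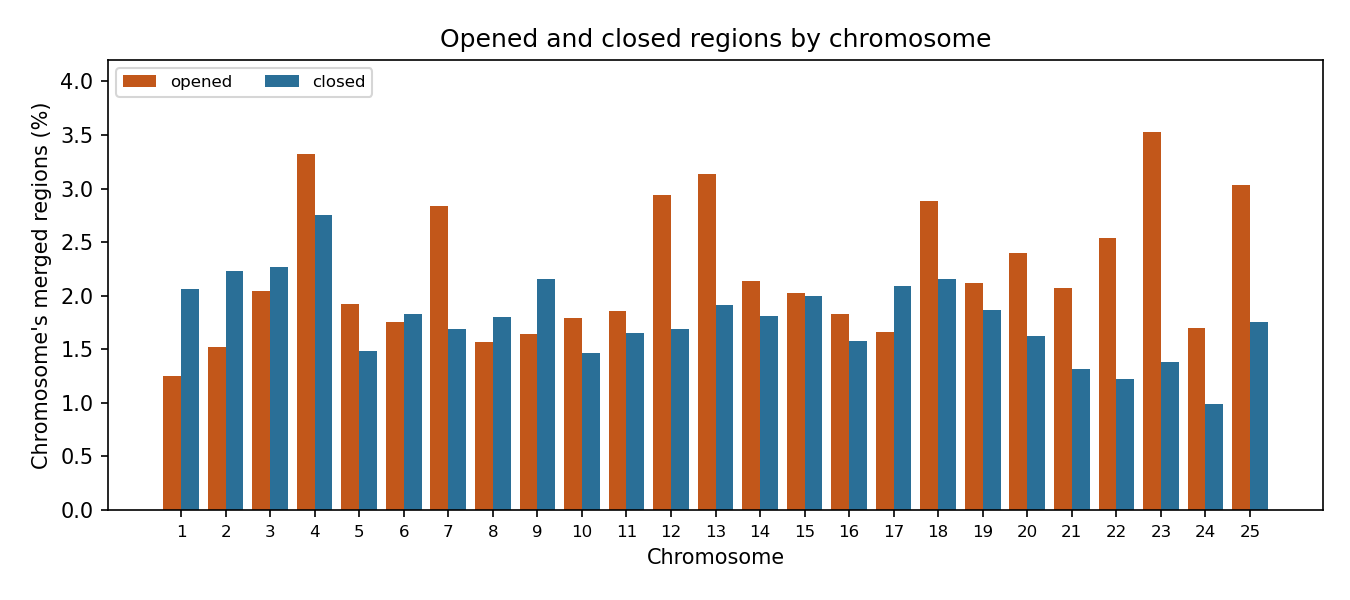
Percent of each chromosome's merged regions that were opened or closed (y axis) on chromosomes 1 to 25 (x axis). The opened bar is highest on chromosome 23 (3.53%) and lowest on chromosome 1 (1.25%); the closed bar is highest on chromosome 4 (2.76%) and lowest on chromosome 24 (0.99%).

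Windows of 100 kb were used to look for local groups. Of 12864 windows with a merged region, 1529 held an opened region and 1319 a closed one, and 74 held both. At least 3 opened regions stood together in 33 windows and at least 3 closed regions in 13. The windows with most opened regions held 5 each, at chr10:28200001-28300000, chr23:22900001-23000000 and chr23:29100001-29200000. Their merged regions numbered 11, 21 and 12, in the same order. In the first of them, all 5 opened regions lay between positions 28220298 and 28273728, beside 3 kept regions. Those at 28249349-28249797 and 28249837-28250136 overlapped the same peak in 24 hpf atRA replicate 2 (rank 15896) and in 80% epiboly DMSO replicate 2 (rank 13371), so they may be 1 site. In each of these 3 windows 0 regions were closed, as in most windows, since 1319 of the 12864 held a closed region.

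A single window held 5 closed regions, chr3:60100001-60200000, and there 0 of the 7 merged regions were kept. Across this window the lists held 0 and 2 peaks in 24 hpf DMSO libraries against 14 and 20 in 12 somites DMSO libraries, and 0 and 1 in 24 hpf atRA libraries against 17 and 16 in 12 somites atRA libraries. At 80% epiboly the lists held 15 and 2 peaks after atRA, with best ranks of 3989 and 31127, and 2 and 2 peaks after DMSO, none of them in the top set. Top peaks in this window were thus found in the same 6 libraries that had high shares of peaks near chromosome ends, the 4 of 12 somites and the 2 of 80% epiboly after atRA. The labels do not say whether these 6 libraries share a batch or a fish strain. All 12 somites libraries lie on one side of this division and all 24 hpf libraries on the other, so a batch or strain cannot be told apart from the stage, for this window, for the position near chromosome ends or for the classes as a whole.

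The 10 opened and the 10 closed regions with the best worse rank in their 2 defining libraries were taken one by one. The strongest opened region, 319 bp at chr2:31732175-31732493, was far ahead of the others. It ranked 5 and 6 in the 24 hpf DMSO libraries, with a fold of 23.6 and 22.9 and a summit pileup of 107 and 92 fragments. In the 24 hpf atRA libraries it ranked 4 and 4, with a pileup of 108 and 121. None of the 8 lists of 12 somites and 80% epiboly held a peak there. It was the 1 region of the 10 without a peak in either 12 somites DMSO list.

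The next opened region, 339 bp at chr5:7478782-7479120, was strong before and after 12 somites. At 80% epiboly it had ranks of 3873 and 5715 after atRA and 4530 and 7169 after DMSO. At 12 somites it had no peak in DMSO replicate 1 and a fold of 4.18 at rank 172370 in DMSO replicate 2, and in the 24 hpf DMSO libraries it had a fold of 17.9 and 14.3 at ranks of 630 and 3903. The rule set the low at 12 somites and the high at 24 hpf in the DMSO libraries. The ranks at 80% epiboly and in the atRA libraries were free. In the 24 hpf atRA libraries this region ranked 6557 and 6787. High ranks at 80% epiboly recurred in other strong opened regions. Over all opened regions, 13.5% were in the top set of both 80% epiboly DMSO libraries, against 43.7% of all merged regions. The region at chr16:49445232-49445528 had ranks of 12642 and 12745 in the 80% epiboly DMSO libraries, none and 235432 in the 12 somites DMSO libraries, and 6702 and 8875 in the 24 hpf DMSO libraries. The region at chr12:814245-814773, at 529 bp the widest of the 10, had ranks of 15621 and 14939, then 121898 and none, then 3637 and 4669 over the same stages. In the 12 somites atRA libraries, the regions on chromosomes 5, 16 and 12 ranked 120474 and none, 267657 and none, and 69245 and 136950.

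In the DMSO libraries, other opened regions ranked high only at 24 hpf. The region at chr19:7372671-7372991 had ranks of 168025 and 160027 in the 80% epiboly DMSO libraries, 149711 and none at 12 somites, and 3907 and 5835 at 24 hpf. In the 12 somites atRA libraries it ranked 52445 and 75099. The region at chr18:38426466-38426891 had a fold of 6.73 and 6.21 in the 80% epiboly DMSO libraries, no peak and 5.17 at 12 somites, and 11.1 and 12.0 at 24 hpf. Both were outside the best 50000 peaks at 80% epiboly and at 12 somites in the DMSO libraries.

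In 3 of the 10, atRA-treated embryos at 12 somites did have a top peak. The region at chr13:5672794-5673085 ranked 22611 and 39236 in the 12 somites atRA libraries, the region at chr5:60774515-60774926 ranked 76046 and 32469, and the region at chr22:5644562-5645064 ranked 29973 and 54132. In the 12 somites DMSO libraries their ranks were 122577 and 102238, none and 100264, and none and 124459, in the same order of regions. Each of the 3 thus reached the top set in at least 1 of the 12 somites atRA libraries. The rule had required low ranks or no peak in the 12 somites DMSO libraries and nothing of the atRA libraries, so the treatments are not compared evenly. Over all opened regions, 15.01% and 14.3% were in the top set of 12 somites atRA replicates 1 and 2. An effect of atRA on the 3 regions was not tested.

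Among the 10 named closed regions, 7 had no peak in either 24 hpf DMSO list, and 6 had none in the 24 hpf atRA lists either. Among these 6 were both named regions of the chromosome 3 window. The first, 368 bp at chr3:60196505-60196872, had no peak in the 4 lists of 24 hpf and ranks of 2515 and 662 in the 12 somites DMSO libraries, with a fold of 13.7 and 17.9 and a pileup of 36 and 69. The second, 309 bp at chr3:60111434-60111742, had no peak in the 4 lists of 24 hpf and ranks of 2808 and 1050 in the 12 somites DMSO libraries. Both ranked between 3989 and 39515 in the 80% epiboly atRA lists and had no peak in the 80% epiboly DMSO lists. The region at chr4:72292144-72292437 had the same pattern. It had ranks of 17659 and 100478 in the 80% epiboly atRA lists and no peak in the 80% epiboly DMSO lists, ranks of 4659 and 1090 in the 12 somites DMSO libraries, and no peak in the 4 lists of 24 hpf.

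A region at chr12:47650588-47650846 came closest to a pattern of 12 somites alone. At 80% epiboly 1 list held an overlapping peak, whose summit lay outside the region. At 12 somites it had a fold of 19.2 and 19.6 in the atRA libraries and of 17.4 and 19.5 in the DMSO libraries, and at 24 hpf it had no peak in the 4 lists. At a distance of 64.0 kb, the opened region at chr12:47714886-47715120 had ranks of 3598 and 5048 in the 24 hpf DMSO libraries, against no peak and 127318 in the 12 somites DMSO libraries. At 80% epiboly that opened region already ranked 12734 and 9950 after atRA and 36556 and 25305 after DMSO. The closed region at chr2:56281286-56281647 was weak at 80% epiboly, with ranks of 251574 and 216288 after DMSO. It was strong at 12 somites (ranks 6735 and 1984 after DMSO) and absent from the 4 lists of 24 hpf. The region at chr14:14405154-14405612 had no peak and rank 227899 in the 24 hpf DMSO libraries, against ranks of 2750 and 3983 in the 12 somites DMSO libraries; the 80% epiboly peaks that overlapped it had their summits outside the region.

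Other closed regions already ranked high at 80% epiboly. The region at chr13:44057149-44057462 had a fold of 14.1 and 15.6 in the 80% epiboly DMSO libraries and of 13.7 and 17.7 in the 12 somites DMSO libraries, and no peak in the 4 lists of 24 hpf. The region at chr7:73170269-73170564 had ranks of 20017 and 16056 in the 80% epiboly DMSO libraries, 2401 and 3180 in the 12 somites DMSO libraries, and no peak in the 24 hpf DMSO lists. In a pair of them the ranks at 24 hpf were better after atRA, but the rule had required low ranks only of the DMSO libraries. The region at chr3:21487902-21488190 ranked 19437 and 16578 in the 24 hpf atRA libraries, against no peak and rank 160067 in the 24 hpf DMSO libraries. The region at chr6:58692096-58692589, at 494 bp the widest of the 10, ranked 20667 and 49732 in the 24 hpf atRA libraries, against 105197 and 129416 in the 24 hpf DMSO libraries.

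**Figure D5:**
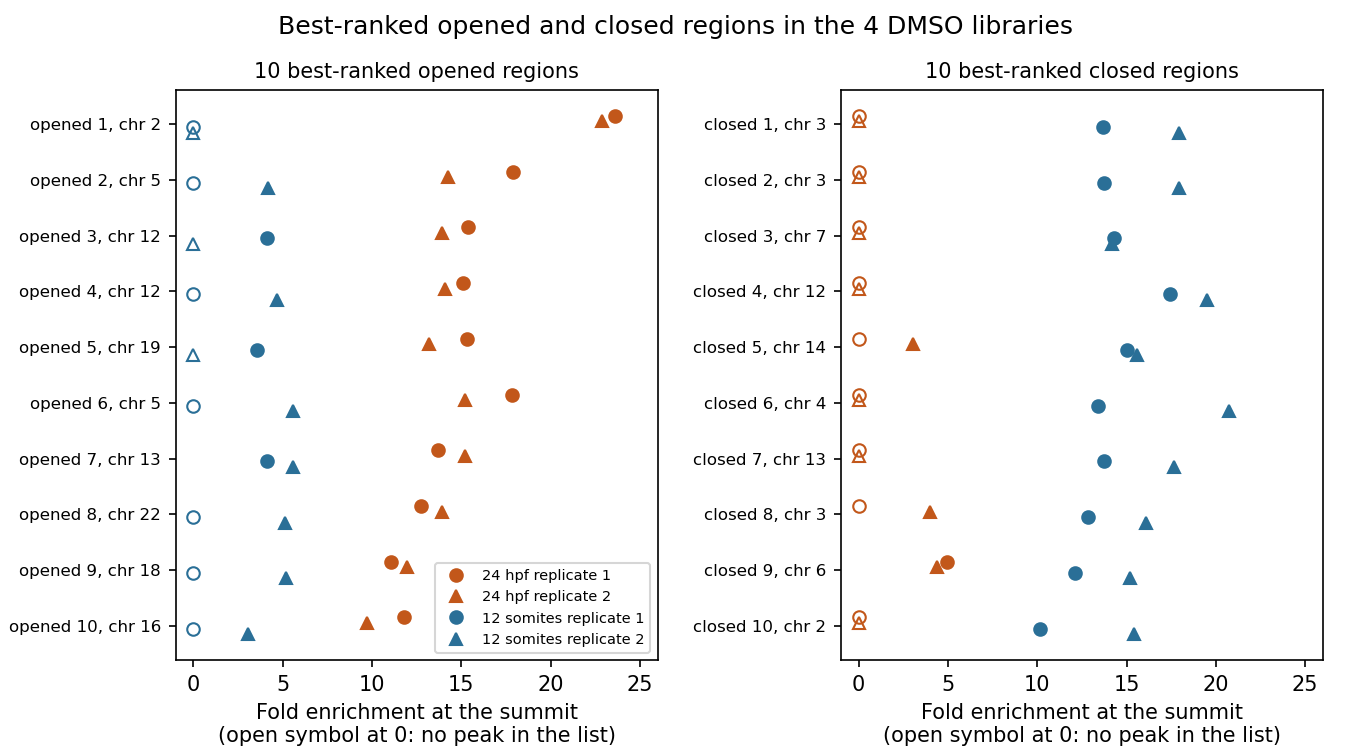
Fold enrichment at the summit (x axis, ratio) of the 10 best-ranked opened regions (left) and the 10 best-ranked closed regions (right) in the 4 DMSO libraries; an open symbol at 0 means that the list held no peak. In the left panel the 24 hpf points lie between 9.73 and 23.6 and the 12 somites points at 0 or up to 5.57; in the right panel the 12 somites points lie between 10.1 and 20.7 and the 24 hpf points at 0 or up to 4.94.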

How the data were processed

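ATAC-seq peak lists of 12 whole-embryo libraries, 1 list per library and none pooled, were taken as the authors deposited them. MACS2, Bowtie2, SAMtools and the build GRCz10 (danRer10) are named in the submitters' processing notes, and versions, settings and any read shift are not given in the sources used here. Peak names hold a word for nucleosome-free fragments, per the file contents, and how these were chosen is not given. In each narrowPeak list the authors deposited a fold enrichment (a ratio of the summit to the local background), −log10 p-values and −log10 q-values, and a score that is 10 times the −log10 q-value cut to a whole number. They are the authors' values and served to order and select peaks inside 1 list at a time. Folds of named regions are also printed for several libraries. The lists differ in depth, so a difference of fold between libraries is not a measured change in accessibility.

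Peaks overlapping by at least 1 bp were merged. The summit pileup and its background were solved from fold = (pileup + 1) / (background + 1) and a Poisson p, within a tolerance of 0.001 in −log10 p, for 100% of peaks; in the shallowest DMSO list 0.16% of peaks had more than 1 solution. The most frequent background served as depth. Fragment totals are unknown, so no counting interval is given. Tests were exact permutations over libraries, and 2 against 2 cannot give a two-sided p under 0.33. Members, lists and named regions (the 10 per direction with the best worse rank) were chosen with earlier results of these data known. Region calling was tested on simulated lists. Python 3.11.15, numpy 2.4.6, pandas 2.3.3, scipy 1.17.1 and matplotlib 3.10.9 were used. The alternatives covered the size of the top set, the definition of absence, ranking, a q-value limit, overlap, summit windows, single libraries and a replicate block. Genes, start sites, cell type markers, base composition, motifs and sequences were not analysed here, since no genome or annotation of GRCz10 was used, so the tissue was not checked against its markers and no region is tied to a gene.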

Additional observations from a re-analysis of the deposited data

How the results depend on the processing

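Counts followed the definition of the top set and of absence. Opened and closed regions numbered 769 and 758 (difference 11, kept 10434) with top sets of 20000 and wide sets of 40000 peaks, and 11776 and 9155 (2621, kept 48054) with 100000 for both. With absence as no peak of any rank they numbered 411 and 371 (40), and with absence as outside the top 50000, 6335 and 5581 (754). With all peaks of q at most 0.01 they numbered 19371 and 13120 (6251, kept 80156), with reciprocal overlap of 50% 2830 opened regions (difference 1190), and with the library of each stage nearest in depth 7137 and 6965 (172). The difference turned negative with the atRA libraries (−452, with 1068 opened) and with all 4 libraries per stage (−39, with 227 opened and 266 closed). Leaving out 1 library gave 2943 to 4955 opened and 2480 to 6010 closed regions, with a difference of −1055 to 2027 that was negative without either 12 somites library (−1044 and −1055). Top sets with a fixed quota of peaks in each 5 Mb, added after seeing the data, gave a difference of 200, and 21.2% of opened and 23.8% of closed regions near ends, which its construction draws together.

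The ratio of width to kept regions stayed below 1 under all alternatives run. For opened regions it was 0.867 with top sets of 20000, 0.737 with 100000, 0.736 with absence as no peak, 0.819 with absence as outside the top 50000, 0.759 ranked by fold, 0.794 with summit windows, and 0.751 to 0.812 without 1 library. For closed regions it was 0.922, 0.781, 0.780 and 0.872 under the first 4 of these, and 0.749 to 0.859 without 1 library. The share of opened regions within 5 Mb of an end was 10.3%, 14.0% and 15.6% with top sets of 20000, of 100000 and absence as no peak, and 12.5% to 13.5% without 1 library. The share of closed regions there was 38.7%, 27.5% and 35.8% under these 3, 30.2% with absence as outside the top 50000, 28.3% ranked by fold, and 26.9% to 31.1% without 1 library. The differences between the atRA libraries in the top-set shares of opened and closed regions kept their sign under all alternatives run for them.

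The replicate numbers of the labels are not said to pair libraries, and over kept regions the deviations of same-numbered libraries in log2 fold correlated with r of 0.05, with 2 pairs. With a replicate block the counts were the same by construction (1792 and 1476). The width difference was 28 bp (40 and 16 bp in the 2 pairs), with a two-sided exact permutation p of 0.5, the smallest that 2 pairs allow. The block gives no value for the sharing of top peaks. The named regions kept their call in 10 of 10 per direction under most alternatives, but many of these could hardly remove a call. Leaving out a library, a single library per stage, the larger top set and absence as outside the top set only loosen the rule. The replicate block leaves the calls as they are by construction. With absence as no peak of any rank, 1 opened and 7 closed named regions kept their call. These numbers were 2 and 7 with the q-value limit, and 3 and 8 with the atRA libraries or all 4 libraries per stage. Ranked by fold or with equal numbers per 5 Mb, they were 8 and 9. Alternatives that need start sites, genes, base composition or motifs were not run. The causes of these shifts were not tested. The wide set ended at a −log10 p-value of 6.06 in the shallowest list and between 7.50 and 8.52 in the others. The part of depth in absence was not tested.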
